A study of Mus musculus with 6 samples.

Results

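The genes described here encode splicing factors and proteins of the spliceosome, the machine that removes introns from precursor RNA. They were taken by their symbols: every probe set of the array with a single annotated gene symbol that begins with Srsf, Hnrnp, Sf3a, Sf3b, Snrp, Prpf, Rbfox, Mbnl, Celf or Ptbp followed by a letter or digit, together with U2af1, U2af2 and Esrp2. Snrpn, an imprinted gene, was left out with its 1 probe set. This gave 222 probe sets of 76 genes, out of 45037 probe sets and 18193 singly named genes on the array. The rule itself reads symbols and no level, but it was chosen with earlier results of these data known. By role they fell into core spliceosome proteins (81 probe sets), heterogeneous nuclear ribonucleoproteins or hnRNPs (58), SR proteins (33) and tissue regulators (50). A probe set is a group of short probes that read 1 transcript or several related ones.

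The samples were embryoid bodies, rounded aggregates in which embryonic stem cells differentiate, made from the mouse D3 line in medium without LIF under rotary culture and taken at day 10. The RA group held 3 samples whose gelatin-coated microspheres were loaded with retinoic acid (RA), the form of vitamin A that activates nuclear receptors. The control group held 3 samples whose gelatin-coated microspheres carried CellTracker Red, a fluorescent cell dye. As described, the groups differ in both RA and dye, and the effects of these cannot be told apart. Each sample was read on 1 Affymetrix mouse expression array. All 6 samples therefore share 1 cell line, the embedded microspheres and the gelatin coat, and no bodies without microspheres were analysed here. The labels speak of triplicates without saying that they were separate cultures, so p-values measure only the spread among these arrays, and that spread may be technical. By its title the study concerns an early streak phenotype. The question here is how the levels of splicing genes differ between bodies with RA microspheres and control bodies.

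As background, the spliceosome assembles anew on each intron from small nuclear ribonucleoproteins (snRNPs), whose RNAs carry a ring of Sm proteins, and from further proteins that recognise the branch point and the splice sites. SR proteins bind exons and mostly favour their inclusion, whereas many hnRNPs bind silencer elements and oppose it. Tissue regulators shift splicing programmes: Mbnl proteins favour the patterns of differentiated muscle and brain, Ptbp1 holds back neuronal exons, Ptbp2 takes over in young neurons, Rbfox proteins act in muscle and neurons, and Esrp proteins act in epithelia. Many of these genes make several transcripts, among them ones with a premature stop that are degraded, and most Affymetrix probe sets read the 3′ end. The arrays measured transcript levels and not splicing.

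Upstream sequence is shown for the gene with the largest rise by its brightest probe set in each of the 4 role groups (Srsf6, Hnrnpu, Prpf4b and Ptbp2) and for Mbnl1, which had the largest fall, so that the composition of these promoters can be seen beside their levels. Each line holds the 250 bases before an annotated start, 5′ to 3′ on the strand of the gene, from RefSeq (GRCm38.p6). Capitals mark matches to any of 5 short motifs, searched on both strands. These were the GC box GGGCGG, the CCAAT box CCAAT, the TATA box TATAAA, the ETS motif CCGGAAG and the hexamer AGGTCA of the retinoid receptors. Overlapping matches merge into 1 capital run.
Srsf6, chr2:162931258-162931507, plus strand: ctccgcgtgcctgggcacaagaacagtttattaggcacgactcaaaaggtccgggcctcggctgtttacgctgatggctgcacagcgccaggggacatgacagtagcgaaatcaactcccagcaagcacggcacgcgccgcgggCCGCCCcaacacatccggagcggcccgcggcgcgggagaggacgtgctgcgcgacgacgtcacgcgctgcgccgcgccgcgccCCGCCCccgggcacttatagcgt
Hnrnpu, chr1:178337816-178338065, minus strand: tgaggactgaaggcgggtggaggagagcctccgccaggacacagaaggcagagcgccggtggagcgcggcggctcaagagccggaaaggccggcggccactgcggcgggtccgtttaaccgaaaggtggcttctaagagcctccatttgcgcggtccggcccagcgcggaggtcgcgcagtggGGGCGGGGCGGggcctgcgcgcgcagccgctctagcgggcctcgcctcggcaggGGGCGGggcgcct
Prpf4b, chr13:34875279-34875528, plus strand: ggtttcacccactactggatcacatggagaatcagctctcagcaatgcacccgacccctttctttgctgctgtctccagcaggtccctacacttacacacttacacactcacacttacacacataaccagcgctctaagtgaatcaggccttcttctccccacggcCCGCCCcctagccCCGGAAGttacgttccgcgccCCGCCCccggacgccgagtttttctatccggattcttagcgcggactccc
Ptbp2, chr3:119783389-119783638, minus strand: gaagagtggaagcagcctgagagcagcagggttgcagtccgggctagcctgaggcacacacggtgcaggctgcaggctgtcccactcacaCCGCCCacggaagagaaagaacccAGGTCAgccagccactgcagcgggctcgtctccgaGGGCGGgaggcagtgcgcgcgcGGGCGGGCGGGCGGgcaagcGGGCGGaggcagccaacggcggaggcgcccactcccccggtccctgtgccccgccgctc
Mbnl1, first listed start, chr3:60472580-60472829, plus strand: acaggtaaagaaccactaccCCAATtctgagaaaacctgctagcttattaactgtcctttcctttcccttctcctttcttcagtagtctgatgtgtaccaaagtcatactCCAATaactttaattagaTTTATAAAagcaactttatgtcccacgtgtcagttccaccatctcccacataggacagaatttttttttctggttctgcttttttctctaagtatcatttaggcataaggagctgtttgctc
Mbnl1, second listed start, chr3:60500929-60501178, plus strand: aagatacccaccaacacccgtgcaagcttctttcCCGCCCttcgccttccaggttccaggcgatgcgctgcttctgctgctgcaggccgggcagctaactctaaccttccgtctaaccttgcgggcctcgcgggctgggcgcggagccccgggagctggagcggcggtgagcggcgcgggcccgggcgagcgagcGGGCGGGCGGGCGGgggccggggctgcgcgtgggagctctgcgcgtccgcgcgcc

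The 4 promoters of risen genes held GC boxes and no TATA box, and Ptbp2 held 1 retinoid hexamer. The first listed Mbnl1 start had CCAAT boxes and a TATA box without a GC box, whereas the second had GC boxes alone. The array does not tell which start was in use. Promoters were listed for 65 of the 76 genes, 99 promoters in all. A GC box occurred in 59.6% of these, against 54.5% of the promoters of all genes tested and 32.7% of all listed promoters. The ETS motif occurred in 21.2% of member promoters, against 11.96% for all genes tested and 6.91% for all listed promoters. By role group, it was in 13 of 31 core spliceosome promoters (26 genes), 5 of 13 SR promoters (10 genes), 3 of 26 hnRNP promoters (17 genes) and 0 of 29 promoters of tissue regulators (12 genes), and differences between the groups were not tested. A CCAAT box occurred in 45.5% of member promoters, against 34.6% for all genes tested and 33.9% for all listed promoters. The TATA box was at 8.08% of member promoters, against 7.19% and 12.4% in the same 2 sets. The retinoid hexamer occurred in 9.09% of member promoters, against 11.1% for all genes tested and 14.0% for all listed promoters. Direct repeats of the hexamer with a gap of 2 or of 5 bases were found in 0 of the 99, and in 3 of all 32851 listed promoters for each gap. These matches describe letters in a short window and not binding.

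Members were read against the whole array in 1 fit. After quantile normalization of log2(intensity + 16), 193 member probe sets of 73 genes had a mean level above the 40th percentile of all probe sets (5.74 on the log2 scale) and were tested among 27022. Srsf12, Celf6 and Rbfox3 had no probe set above it, which leaves their change unmeasured. Levels and differences below are on this log2 scale, differences are RA minus control with the standard error of the fit, and a probe set counts as changed at an adjusted p under 0.05 (limma, Benjamini-Hochberg over all 27022).

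The members as a whole leaned towards higher levels in RA bodies, by small amounts. In the limma fit 51 of the 193 probe sets rose (26.4%), where 11.3% of all tested probe sets rose. Another 10 fell (5.18%), where 11.1% of all fell, and 132 did not pass the test. The median difference was 0.19 over the members and 0.04 over all tested probe sets, whose middle 50% lay between -0.27 and 0.32. All 3 RA arrays lay above all 3 control arrays for 72 member probe sets and below them for 21, where 20.2% and 18.2% of all probe sets did so. Changes of at least 2-fold were found in 6.74% of all tested probe sets and in 3 member probe sets, of Mbnl1, Mbnl2 and Ptbp2. With each gene read by its brightest probe set, 25 of 73 genes rose and 5 fell, where 13.1% of all genes rose and 14.4% fell. By role group, 19 of 31 SR probe sets rose and 0 fell, 16 of 72 core spliceosome probe sets rose and 1 fell, 13 of 54 hnRNP probe sets rose and 4 fell, and 3 of 36 probe sets of tissue regulators rose and 5 fell. Whether one role group moved more than another was not tested. Without scaling between arrays the median of all probe sets was itself 0.27 and 74.0% of all calls were rises, against 50.4% after scaling. The member median was then 0.51, and 2 member probe sets fell. Without a trend in the variance model, 27 member probe sets rose and 6 fell. Members were brighter than the array: 169 of them were above a 60th percentile filter, as were 18015 of all probe sets. Above that filter 16.9% of all probe sets rose and 15.5% fell. The medians there were 0.21 over members and 0.04 over all.

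**Figure D1:**
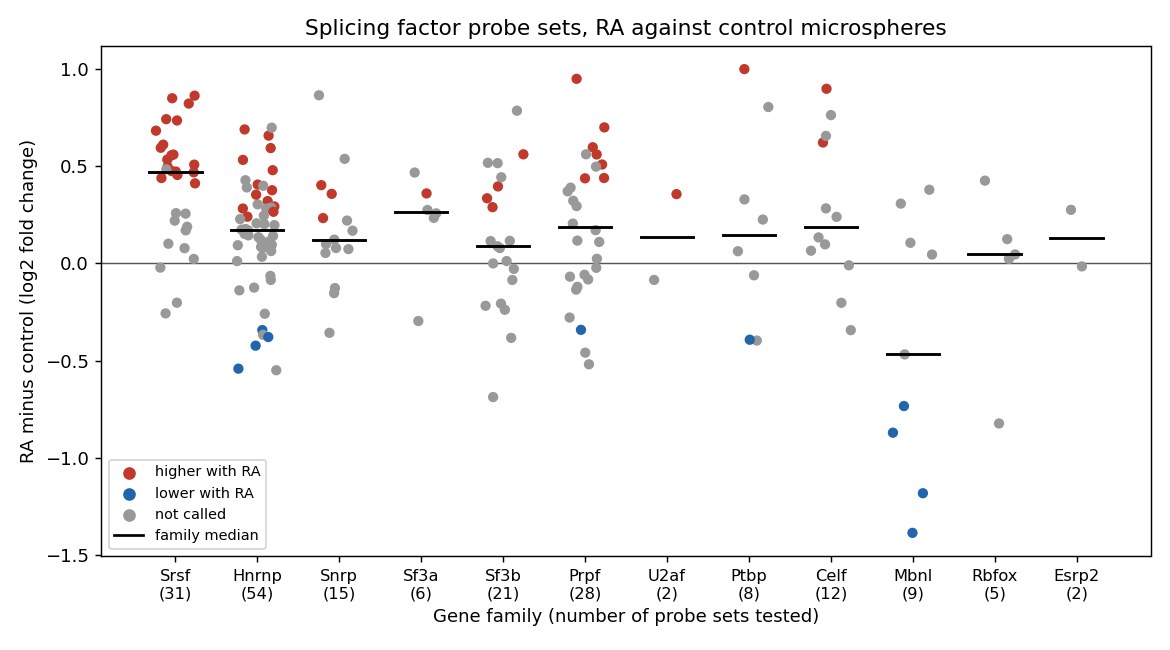
Difference between RA and control bodies (vertical axis, log2 fold change) for each of the 193 tested probe sets, by gene family (horizontal axis, with the number of probe sets tested). Red points rose, blue points fell and grey points did not pass the limma test; black bars are family medians, highest for Srsf at 0.47 and lowest for Mbnl at -0.47.

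The arrays had median deposited signals of 61.7 to 65.5 in the RA group and 41.4 to 63.6 in the control group, so they were not at 1 overall level before normalization. The ratio of 3′ to 5′ signal for Gapdh, which rises as RNA degrades, was 34.0 on RA array 1 against 3.06 to 4.74 on the other 5, and the actin ratio was 4.35 to 7.42 in the RA group and 3.35 to 4.24 in the control group (exact two-sided permutation p = 0.1, the smallest that 3 against 3 arrays allow). Without RA array 1 and control array 3, the array with the lowest signal, 47 members rose and 9 fell, and 19 SR probe sets rose. Cell type markers differed between the bodies as well. All 8 measured markers of embryonic stem and epiblast cells rose (summed signal 15218 to 15808 in RA bodies and 2319 to 2500 in control bodies). Of 9 heart muscle markers 7 fell (586 to 623 in RA bodies and 10515 to 15731 in control bodies), as did all 6 mesenchyme and matrix markers (4635 to 5042 in RA bodies and 23175 to 27015 in control bodies). In bulk RNA, fewer cells of a type and less RNA per cell cannot be told apart, and the part of these cell types in the splicing gene results was not tested.

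Most SR protein genes rose. Of the 9 SR genes with a probe set above the filter, 6 rose by their brightest probe set (Srsf1, Srsf2, Srsf3, Srsf4, Srsf6 and Srsf10), by 1.37-fold to 1.82-fold, and the differences of the other 3 were positive without passing the test. Srsf6 had levels of 11.46, 11.31 and 11.34 in RA bodies and 10.57, 10.60 and 10.34 in control bodies. The RA arrays all lay above the control arrays, with a difference of 0.86 ± 0.088 (1.82-fold, limma adjusted p = 5.21e-05). Srsf6, on chromosome 2, binds exon enhancers, and each of its 4 probe sets rose, by 0.44 to 0.86. Srsf3 had levels of 12.15, 12.14 and 12.13 in RA bodies and 11.56, 11.53 and 11.50 in control bodies. The groups were far apart relative to their spread, at 0.61 ± 0.061 (adjusted p = 4.79e-05). Srsf3, the smallest SR protein, also takes part in export of mRNA, and 2 of its 6 probe sets rose. Another Srsf3 probe set, 1416151_at, had a difference of -0.26 that did not pass (adjusted p = 0.10) although its arrays did not overlap.

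Srsf2 had levels of 12.51, 12.44 and 12.48 in RA bodies and 11.85, 12.01 and 11.89 in control bodies. No RA array came near a control array, and the difference was 0.56 ± 0.067 (adjusted p = 0.000151). Srsf2, also known as SC35, marks nuclear speckles, and 3 of its 4 probe sets rose. Srsf1 had levels of 12.59, 12.57 and 12.55 in RA bodies and 12.15, 12.05 and 12.10 in control bodies. The difference was 0.47 ± 0.06 (adjusted p = 0.000246) without overlap. Srsf1 is the founding member of the family, and 5 of its 6 probe sets rose, by 0.47 to 0.85. Srsf4 had levels of 9.93, 9.90 and 9.77 in RA bodies and 9.43, 9.38 and 9.25 in control bodies. Its only probe set differed by 0.51 ± 0.095 (adjusted p = 0.00298), with all RA arrays above the controls. Srsf10 had levels of 9.98, 9.99 and 9.96 in RA bodies and 9.50, 9.65 and 9.41 in control bodies. The difference was 0.46 ± 0.093 (adjusted p = 0.00487). Srsf10, which represses splicing when it loses its phosphates, rose in all 4 probe sets, by 0.46 to 0.82. Of the other SR genes, Srsf9 differed by 0.26 (adjusted p = 0.068, arrays apart), Srsf11 by 0.19 (adjusted p = 0.19) and Srsf5 by 0.08 (adjusted p = 0.58), the last 2 with overlapping arrays. The 95% interval for Srsf5 was -0.11 to 0.27, and that for Srsf11 was -0.02 to 0.40.

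**Figure D2:**
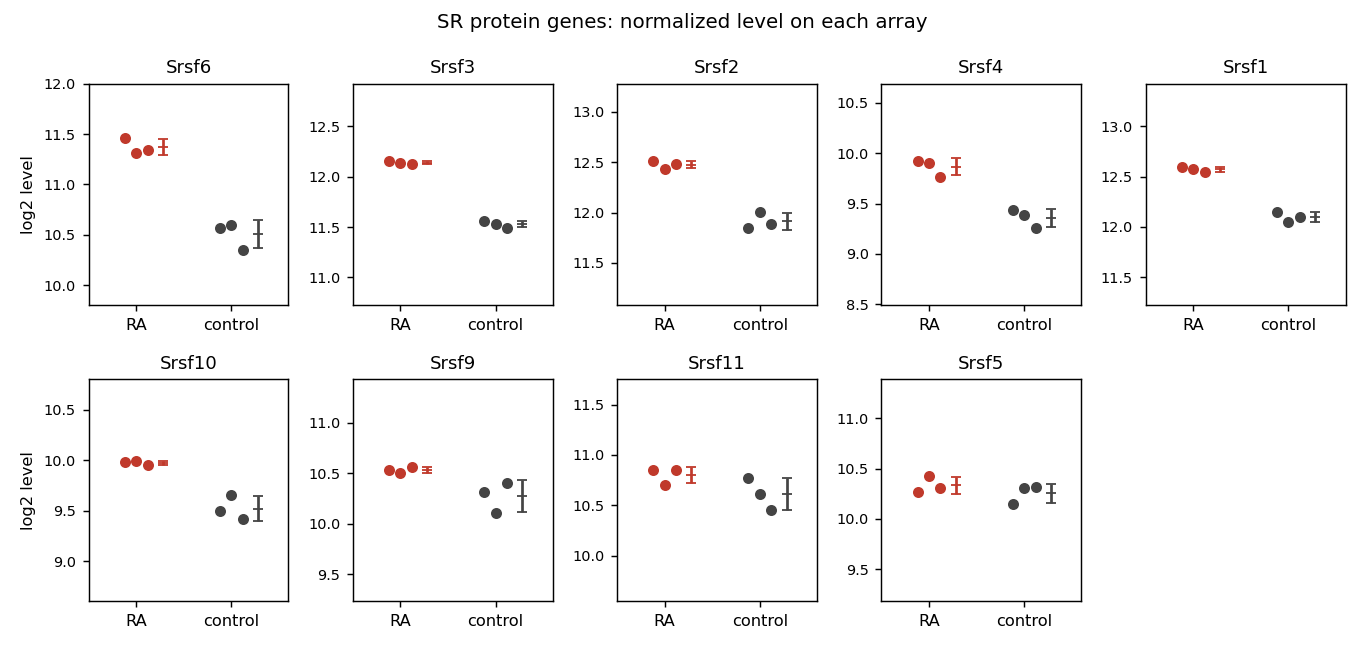
Normalized log2 level (vertical axes, each spanning the same range) of the 9 tested SR genes by their brightest probe set, with 3 RA arrays in red left of 3 control arrays in dark grey and the mean ± SD beside them. The RA points lie above the control points for Srsf6, Srsf3, Srsf2, Srsf4, Srsf1, Srsf10 and Srsf9, and overlap them for Srsf11 and Srsf5.

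No SR probe set fell in the limma fit, and 1 of 31 was lower at an unadjusted p under 0.05, against 22 that were higher. Several SR probe sets carry the Affymetrix suffixes _x_at or _s_at, which mark probes that can read other genes or several transcripts: without these suffixes 11 of 22 SR probe sets rose and 0 fell. Srsf1 and Srsf2 lie on chromosome 11, whose 1116 measured genes were shifted by a median of -0.20, where the medians of the other chromosomes lay between -0.00 and 0.09. On chromosome 11, 8 of 10 SR probe sets rose, all 10 from 2 genes. On other chromosomes 11 of 21 did, from 7 genes. Of all measured chromosome 11 genes, by brightest probe set, 5.47% rose and 26.2% fell. On the other chromosomes 10.1% to 20.6% rose and 10.5% to 17.8% fell. The part of the chromosome 11 shift in the SR results was not tested.

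Core spliceosome genes rose in part and fell in none by their brightest probe set: 11 of 31 genes rose, and 1 was lower at an unadjusted p under 0.05. The largest rises were in Prpf genes. Prpf4b had levels of 10.54, 10.22 and 10.25 in RA bodies and 9.31, 9.49 and 9.35 in control bodies. Every RA array lay well above the controls, at 0.95 ± 0.11 (1.93-fold, adjusted p = 0.000113). Prpf4b is a kinase that phosphorylates proteins of the tri-snRNP, the particle that brings in U4, U5 and U6, and all 6 of its probe sets had positive differences, 3 of them past the test. Prpf3 had levels of 9.43, 9.37 and 9.32 in RA bodies and 8.66, 8.61 and 8.73 in control bodies. The difference was 0.70 ± 0.10 (adjusted p = 0.000524), with a narrow spread in both groups. Prpf3 is a protein of the U4/U6 snRNP. Prpf38b had levels of 9.64, 9.46 and 9.42 in RA bodies and 9.03, 8.87 and 8.82 in control bodies. The arrays did not overlap, at 0.60 ± 0.11 (adjusted p = 0.00223), and both tested probe sets rose. Prpf39 had levels of 8.31, 8.31 and 8.15 in RA bodies and 7.74, 8.02 and 7.70 in control bodies. Prpf39, a relative of a yeast U1 snRNP protein, differed by 0.44 ± 0.14 (adjusted p = 0.0471), just past the threshold, and lost the call whenever any array but control array 2 was left out. The other 2 Prpf39 probe sets had 0.37 and -0.06 with overlapping arrays.

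Among U2 snRNP proteins, Snrpa1 had levels of 10.65, 10.67 and 10.60 in RA bodies and 10.27, 10.34 and 10.09 in control bodies. All RA arrays were higher, by 0.40 ± 0.086 (adjusted p = 0.00651). Snrpa1 encodes the U2 protein A′, and 1 of its 3 probe sets rose. The others had 0.17 and 0.05 with overlapping arrays. Sf3b3 had levels of 10.76, 10.85 and 10.71 in RA bodies and 10.43, 10.24 and 10.46 in control bodies. The arrays did not overlap, with a difference of 0.40 ± 0.086 (adjusted p = 0.00715). Sf3b3 belongs to SF3b, the complex that holds the branch point. Its other probe set had 0.08 with overlapping arrays. Sf3a2 (0.36, adjusted p = 0.017) and Sf3b1 (0.29, adjusted p = 0.019), other U2 subunits, rose as well. For Sf3b1, 2 of 4 probe sets rose, and the 4 ranged from -0.24 to 0.56. Sf3b2 (-0.00), Sf3b4 (0.12), Sf3b5 (0.01) and Sf3b6 (0.09) did not pass by their brightest probe set. Of 6 tested Sf3b2 probe sets, 3 had all RA arrays below all control arrays and 0 had them above. None of the 6 passed, and the lowest had -0.69 (adjusted p = 0.0505). A dimmer Sf3b6 probe set rose by 0.34 (adjusted p = 0.0346). Of the Sm proteins, Snrpb (0.36, adjusted p = 0.005) and Snrpe (0.23, adjusted p = 0.022) rose. The other Snrpb probe set had -0.15 with overlapping arrays. Snrpg (0.07), Snrpd3 (0.87, overlapping arrays) and Snrpf (0.54) did not pass. U2af1 had levels of 10.63, 10.97 and 10.69 in RA bodies and 10.41, 10.48 and 10.33 in control bodies. U2af1, which reads the AG at the end of the intron, differed by 0.36 ± 0.10 (adjusted p = 0.0252), and it lost the call without RA array 2 or 3 or control array 1 or 3. U2af2 had levels of 10.04, 9.71 and 9.64 in RA bodies and 9.42, 9.78 and 10.44 in control bodies. The groups overlapped fully for this partner of U2af1, which binds the polypyrimidine tract, at -0.09 ± 0.21 (adjusted p = 0.827); the sign was positive without scaling (0.28) and without control array 3 (0.20). Prpf8, the large U5 protein at the catalytic centre, had -0.28 (adjusted p = 0.076). It lies on chromosome 11, whose measured genes were shifted by a median of -0.20. Sf3a1, on the same chromosome, had 0.26 (adjusted p = 0.090) with all RA arrays above the controls. The part of this shift in these values was not tested. Prpf19, the ubiquitin ligase of the Prp19 complex, had 0.12 by its brightest probe set, with overlapping arrays. Its other tested probe sets had -0.13, -0.12 and -0.08, and for the first 2 all RA arrays lay below all control arrays. None of the 4 Prpf19 probe sets passed. The 1 core probe set that fell belongs to Prpf6 (-0.34, adjusted p = 0.047), whose brightest probe set had 0.11. The count of 16 risen core probe sets was 10 without RA array 2, 9 without RA array 3 and 10 without control array 1. Without a trend in the variance model it was 6, and Prpf39, Snrpa1, Sf3b3 and U2af1 did not pass.

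Of 19 hnRNP genes, 6 rose and 2 fell by their brightest probe set. Hnrnpu had levels of 12.35, 12.41 and 12.33 in RA bodies and 11.88, 11.73 and 11.70 in control bodies. The RA arrays were clearly separate, at 0.59 ± 0.07 (1.51-fold, adjusted p = 0.00014). Hnrnpu, also called scaffold attachment factor A, binds chromatin-associated RNA, and its other 4 probe sets had positive differences that did not pass. Hnrnpll had levels of 10.75, 10.60 and 10.66 in RA bodies and 10.18, 10.00 and 10.24 in control bodies. The difference was 0.53 ± 0.089 (adjusted p = 0.00145) without overlap. Hnrnpll is known for setting the splicing of the CD45 gene in lymphocytes. The other Hnrnpll probe set had 0.21 and did not pass. Hnrnpc had levels of 12.82, 12.75 and 12.76 in RA bodies and 12.46, 12.39 and 12.51 in control bodies. Hnrnpc, which binds uridine tracts of nascent RNA, rose by 0.32 ± 0.06 (adjusted p = 0.00303), and both of its tested probe sets rose.

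Hnrnpd had 11.76, 11.71 and 11.70 in RA bodies and 11.32, 11.38 and 11.62 in control bodies, a difference of 0.28 ± 0.085 (adjusted p = 0.0344). This gene encodes AUF1, a binder of AU-rich elements. The other tested Hnrnpd probe set had -0.06 and did not pass. Hnrnpm had 10.24, 10.14 and 10.16 in RA bodies and 9.94, 9.99 and 9.81 in control bodies, a difference of 0.27 ± 0.087 (adjusted p = 0.0498). Hnrnpul1 had 9.96, 10.02 and 10.35 in RA bodies and 10.35, 10.54 and 10.57 in control bodies, a difference of -0.38 ± 0.11 (adjusted p = 0.0345). For Hnrnpul1, RA array 3 and control array 1 nearly met, and without scaling the difference was -0.01. Hnrnpd, Hnrnpm and Hnrnpul1 each lost the call in at least 4 of the 6 fits that left out 1 array. For Hnrnpf, 3 of 4 probe sets rose, by 0.35 to 0.48, and its brightest had 0.17 (adjusted p = 0.17). Hnrnpk (0.08), Hnrnph1 (0.01), Hnrnpab (0.06), Hnrnpr (0.09) and Hnrnpdl (0.09) had small differences that did not pass by their brightest probe set. A dimmer Hnrnpdl probe set, 1 of 7, rose by 0.69 (adjusted p = 0.00178). For Hnrnpab, 1 of 7 rose by 0.24 (adjusted p = 0.0498), and the 7 ranged from -0.37 to 0.70. Hnrnph1 and Hnrnpab lie on the shifted chromosome 11, and the part of that shift in their values was not tested. Hnrnpl varied too much to read, at 6.08, 8.19 and 6.18 in RA bodies and 8.08, 8.27 and 5.74 in control bodies. The count of 13 risen hnRNP probe sets was 8 without RA array 1, RA array 2 or control array 2, and 4 without a variance trend, where the brightest probe sets of Hnrnpu and Hnrnpll passed and those of Hnrnpc, Hnrnpd, Hnrnpm, Hnrnpul1, Hnrnpa1 and Hnrnpa2b1 did not.

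Hnrnpa1 and Hnrnpa2b1, close relatives that bind exon silencers, were the 2 genes whose probe sets changed in opposite directions. Hnrnpa1 probe set 1436549_a_at had 9.91, 9.98 and 10.07 in RA bodies and 10.29, 10.26 and 10.43 in control bodies, and fell by 0.34 (adjusted p = 0.016). Its only risen probe set, 1455305_x_at, carries the suffix for probes that can read other genes. It had 9.48, 9.33 and 9.30 in RA bodies and 8.80, 8.67 and 8.66 in control bodies, and rose by 0.66 (adjusted p = 0.0011). Neither pair of groups overlapped. The gap between the 2 differences was 1.00, given with no test because the probe sets were picked for their opposite calls. Hnrnpa2b1 probe set 1420365_a_at had 12.80, 12.68 and 12.67 in RA bodies and 12.51, 12.54 and 12.21 in control bodies, and rose by 0.29 (adjusted p = 0.037). Probe set 1433829_a_at had 11.59, 11.65 and 11.48 in RA bodies and 12.11, 12.18 and 12.05 in control bodies, and fell by 0.54 (adjusted p = 0.00031). Probe set 1434047_x_at also fell by 0.42 (adjusted p = 0.025), and the gap between the first 2 was 0.84, likewise with no test. The direction of either gene as a whole is therefore not given by these arrays: the mean over probe sets was 0.12 for Hnrnpa1 and -0.13 for Hnrnpa2b1, neither past the test, and the brightest Hnrnpa1 probe set had 0.041 without scaling. The call of Hnrnpa1 was lost without RA array 1, and that of Hnrnpa2b1 without RA array 1, 2 or 3 or control array 3. Probe sets were not mapped to transcripts here, and the cause of the unequal change was not tested. Among the 52 member genes with more than 1 tested probe set, all differences had 1 sign in 22, and the widest gap was 1.49, in Mbnl2.

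**Figure D3:**
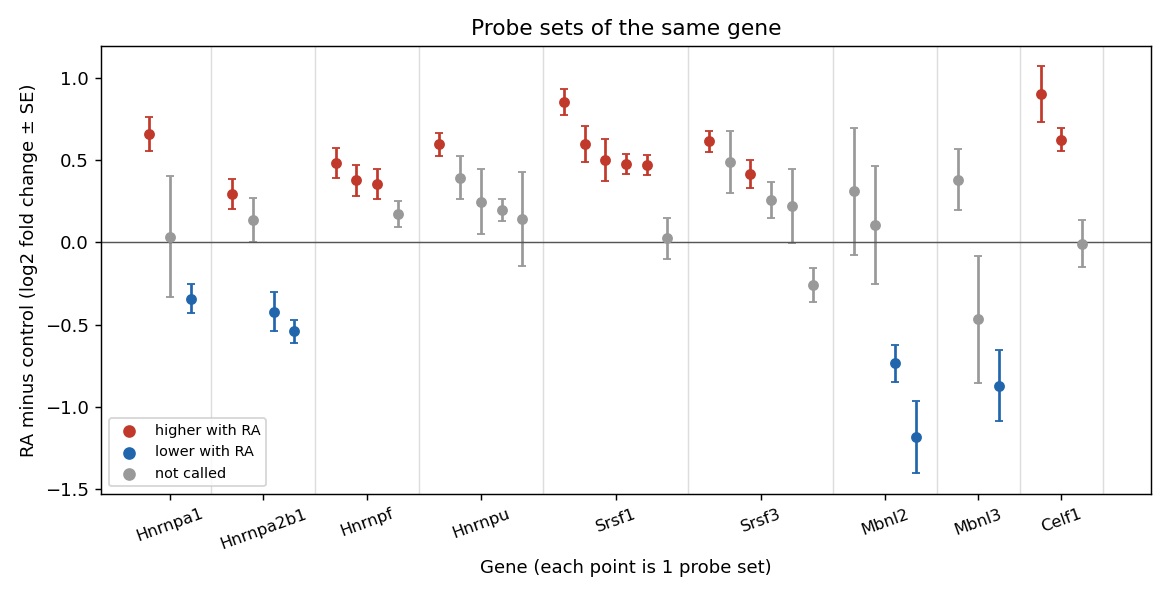
Difference between RA and control bodies (vertical axis, log2 fold change ± SE of the limma fit) for each tested probe set of 9 genes (horizontal axis); red rose, blue fell, grey did not pass. Hnrnpa1 and Hnrnpa2b1 hold both red and blue points, Srsf1 holds 5 red points, and the Mbnl2 points span 1.49; without scaling the blue Hnrnpa1 point moves to 0.041.

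Among the members, tissue regulators held the largest single changes in both directions. Mbnl1 and Mbnl2 fell, Ptbp2 and Celf1 rose, and the Rbfox, Esrp2 and other Celf genes did not pass by their brightest probe set. Mbnl1 (1416904_at) had 8.15, 7.96 and 8.03 in RA bodies and 9.47, 9.53 and 9.29 in control bodies. All RA arrays lay more than 1 log2 unit below the lowest control, and the difference was -1.39 ± 0.12 (2.62-fold lower, adjusted p = 1.2e-05). Mbnl1 favours splicing patterns of differentiated tissue and is the factor sequestered by repeat RNA in myotonic dystrophy. Its other tested probe set, 1457924_at, scattered widely between arrays, at 0.05 ± 0.57 (adjusted p = 0.97). Mbnl2, its relative with a main part in brain, had 8.54, 8.37 and 8.38 in RA bodies and 9.08, 9.14 and 9.27 in control bodies. It fell by 0.73 (adjusted p = 0.00079), and another probe set, 1455827_at, fell by 1.18 (adjusted p = 0.0028). The 2 other tested Mbnl2 probe sets had 0.11 and 0.31 with overlapping arrays.

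Mbnl3 was split. Its brightest probe set had 7.30, 7.70 and 7.61 in RA bodies and 7.21, 7.34 and 6.92 in control bodies, an overlap, at 0.38 (adjusted p = 0.18). Its probe set 1434678_at had 6.44, 6.51 and 6.39 in RA bodies and 7.57, 6.96 and 7.43 in control bodies, and fell by 0.87 (adjusted p = 0.014). In all, 4 of 9 Mbnl probe sets fell and 0 rose, with 0 higher at an unadjusted p under 0.05. When each gene was read by the mean of its probe sets, Mbnl1 had -0.67 (adjusted p = 0.12) and Mbnl2 -0.38 (adjusted p = 0.22), and without scaling Mbnl2 had -0.46 (adjusted p = 0.31). The heart muscle and mesenchyme markers given above fell in the same bodies, as did 4 of 4 endothelial markers (summed signal 103 to 253 in RA bodies and 835 to 953 in control bodies). The part of these cell types in the fall of Mbnl1 and Mbnl2 was not tested.

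Ptbp2 had 10.50, 10.42 and 10.43 in RA bodies and 9.59, 9.40 and 9.37 in control bodies. The groups were separate by a wide margin, at 1.00 ± 0.091 (2.00-fold, adjusted p = 2.31e-05). Ptbp2 is the form of polypyrimidine tract binding protein found in neural precursors and young neurons, and its second probe set had 0.81 (adjusted p = 0.057). Ptbp1, its counterpart in most other cells, had 11.27, 11.83 and 11.63 in RA bodies and 11.45, 11.04 and 11.25 in control bodies. RA array 1 lay among the controls, and the difference of 0.33 ± 0.14 did not pass (adjusted p = 0.12); it was 0.48 (adjusted p = 0.017) without that array and 0.74 (adjusted p = 0.040) without scaling. Ptbp3, first described in blood cells, had 9.63, 9.27 and 9.36 in RA bodies and 9.62, 9.83 and 9.99 in control bodies. It fell by 0.39 (adjusted p = 0.045) although RA array 1 and control array 1 were level, and the call was lost without RA array 2 or 3 or control array 2 or 3. The 3 Ptbp genes had 1 rise, 1 fall and 1 difference short of the threshold. Of 8 measured neuron markers 2 rose and 0 fell (summed signal 1701 to 1854 in RA bodies and 541 to 726 in control bodies). These were Stmn2 (2.72) and Nefl (0.96), and Stmn2, the brightest on the RA arrays, weighs most in the RA sum. The other 6, among them Tubb3 (0.40) and Dcx (-0.41), did not pass. Of 5 neural progenitor markers 3 rose and 0 fell (2958 to 3490 in RA bodies and 876 to 1041 in control bodies). Those were Sox1, Sox2 and Fabp7, whereas Pax6 (0.27) and Nes (0.02) did not pass. The part of neurons and neural progenitors in the rise of Ptbp2 was not tested.

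Celf1, which binds GU-rich sequence and opposes Mbnl proteins on many exons, had 11.92, 11.98 and 12.08 in RA bodies and 11.41, 11.40 and 11.30 in control bodies. It rose by 0.62 ± 0.071 (1.54-fold, adjusted p = 0.000111), another probe set rose by 0.90, and the last tested one had -0.01. The remaining Celf genes are known mainly from brain, and Celf2 from heart as well. Celf2 had 7.77, 7.69 and 7.90 in RA bodies and 7.79, 7.57 and 7.72 in control bodies, with a difference of 0.10. Celf3 had 6.66, 6.77 and 6.57 in RA bodies and 5.91, 6.62 and 6.75 in control bodies, with a difference of 0.24. Their groups overlapped. Celf4 had 6.97, 7.09 and 6.75 in RA bodies and 6.67, 6.27 and 7.02 in control bodies, with a difference of 0.28. Celf5 had 7.03, 6.99 and 6.90 in RA bodies and 7.02, 6.92 and 6.78 in control bodies, with a difference of 0.07. By these brightest probe sets, adjusted p-values of Celf2 to Celf5 lay between 0.45 and 0.85. A pair of dimmer Celf4 probe sets had all RA arrays above all control arrays without passing the test, 1452240_at with 0.76 (adjusted p = 0.053) and 1426930_at with 0.66 (adjusted p = 0.16).

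Rbfox1 had 6.82, 6.67 and 6.49 in RA bodies and 6.45, 6.66 and 6.74 in control bodies, at 0.05 ± 0.21 (adjusted p = 0.91). Rbfox2, the member that is also found in stem cells and epithelia, had 7.65, 7.67 and 7.51 in RA bodies and 7.40, 7.61 and 7.44 in control bodies, at 0.12 ± 0.15 (adjusted p = 0.62). Neither group pair separated, and 0 of 5 Rbfox probe sets changed in the limma fit, with 1 lower and 0 higher at an unadjusted p under 0.05. That 1 was Rbfox2 probe set 1418247_s_at, at -0.82 (adjusted p = 0.078), whose RA arrays all lay below the controls. Esrp2 had 7.22, 6.85 and 6.61 in RA bodies and 6.62, 6.21 and 7.01 in control bodies, at 0.28 ± 0.26 (adjusted p = 0.51). The 95% intervals were -0.42 to 0.52 for Rbfox1, -0.21 to 0.46 for Rbfox2 and -0.30 to 0.85 for Esrp2, and changes within these intervals could not be resolved with 3 arrays a group.

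**Figure D4:**
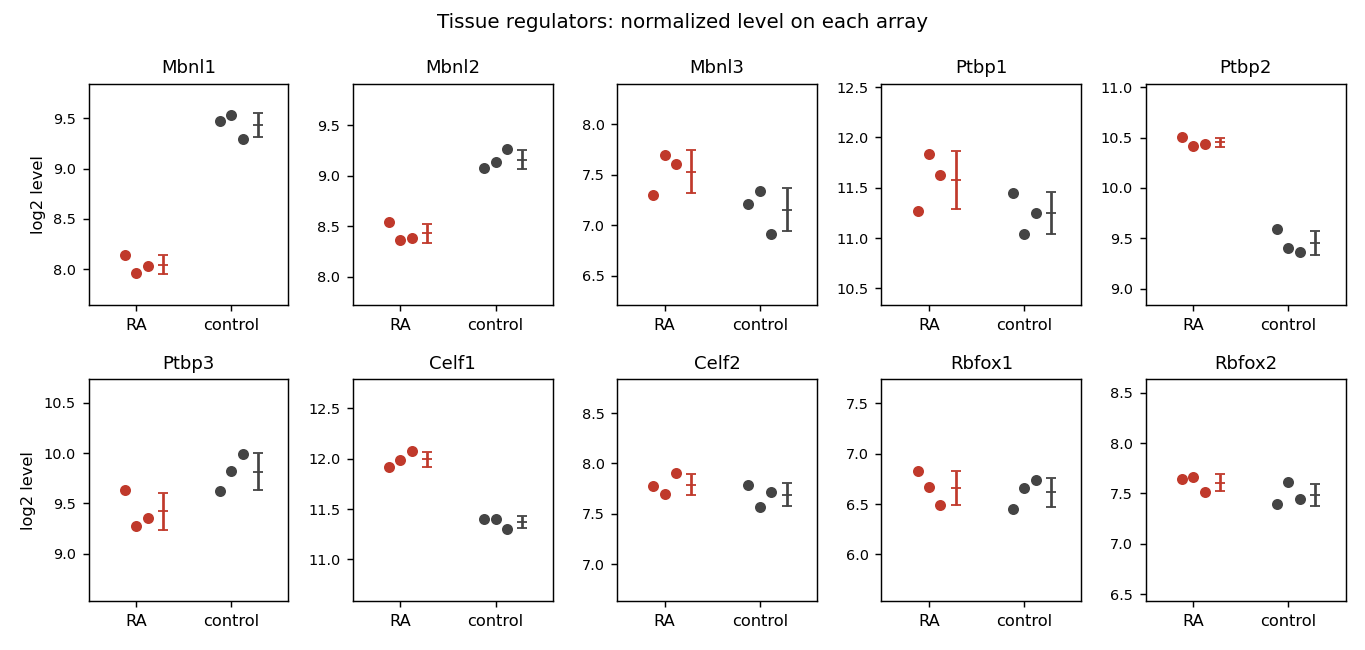
Normalized log2 level (vertical axes, each spanning the same range) of 10 tissue regulators by their brightest probe set, with 3 RA arrays in red left of 3 control arrays in dark grey and the mean ± SD beside them. The RA points lie below the control points for Mbnl1 and Mbnl2, above them for Ptbp2 and Celf1, and overlap them for the other 6.

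Splicing genes outside the named families were read from 7 lists with the same fit, each gene by its brightest probe set. Of 96 measured genes (110 listed) 36 rose and 0 fell in the limma fit, where 13.1% of all genes rose and 14.4% fell, with a median of 0.27; at an unadjusted p under 0.05, 47 were higher and 1 lower. The count of 36 was 15 without a variance trend, 20 without RA array 3 and 23 without control array 2. In the list of U1, U4, U5 and U11/U12 proteins 6 of 15 rose, led by Rnpc3 (0.85, adjusted p = 0.000989), Snrnp48 (0.61, adjusted p = 0.00663) and Pdcd7 (0.47, adjusted p = 0.0253), all proteins of the minor spliceosome. Rnpc3 had 9.01, 8.93 and 8.89 in RA bodies and 8.15, 8.28 and 7.86 in control bodies. Snrnp25, another minor spliceosome protein, also rose (0.40), whereas Snrnp35 had -0.02 and Zcrb1 0.07; these 3 were singled out after their values were seen. In the Lsm ring, which binds U6, 3 of 6 rose: Lsm2 (0.67, adjusted p = 0.0244), Lsm6 (0.49, adjusted p = 0.00197) and Lsm3 (0.37, adjusted p = 0.0143). In the catalytic and NTC list 6 of 25 rose. Isy1 (0.65, adjusted p = 0.0234), Dhx15 (0.53, adjusted p = 0.000288) and Crnkl1 (0.49, adjusted p = 0.0341) were in front. Dhx15 is a helicase that takes spent spliceosomes apart. The list is broader than its name, and 1 of the 6 encodes a subunit of SF3b.

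Some proteins that act on or beside SR proteins rose as well. Srpk1, a kinase that phosphorylates SR proteins, had 9.39, 9.24 and 9.41 in RA bodies and 8.39, 8.32 and 8.52 in control bodies. It rose by 0.94 (adjusted p = 0.000141), and the SR-like activators Tra2b and Tra2a rose by 0.36 and 0.35; 3 of 10 genes in their list rose. In the exon junction list, whose proteins mark spliced mRNA, 3 of 6 rose: Pnn (0.71, adjusted p = 0.0037), Rbm8a (0.59, adjusted p = 0.000152) and Rnps1 (0.39, adjusted p = 0.00133). In the snRNP assembly list, which loads Sm rings onto snRNAs, 5 of 9 rose, led by Wdr77 (0.81, adjusted p = 6.83e-05), Gemin5 (0.74, adjusted p = 0.0154) and Strap (0.54, adjusted p = 0.00118). Wdr77, the partner of the arginine methyltransferase Prmt5 that modifies Sm proteins, had 11.01, 10.99 and 11.04 in RA bodies and 10.32, 10.24 and 10.06 in control bodies. In the list named other tissue regulators 10 of 25 rose. That list also holds general RNA-binding proteins such as Nono, Matr3 and Sfpq, and Sfpq was among the 10. Esrp1, an epithelial regulator that is also 1 of the 7 epithelium markers, had 9.32, 9.08 and 9.13 in RA bodies and 7.63, 7.72 and 8.12 in control bodies, a rise of 1.36 (adjusted p = 8.81e-05). Of those markers 5 rose and 0 fell (summed signal 14930 to 15820 in RA bodies and 9358 to 10669 in control bodies), and their part in the rise of Esrp1 was not tested. Sfpq, a paraspeckle protein, had 12.20, 11.94 and 12.02 in RA bodies and 11.03, 11.07 and 11.02 in control bodies, a rise of 1.02 (adjusted p = 6.4e-06). Khdrbs3, a relative of Sam68, rose by 0.79 (adjusted p = 0.0191).

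**Figure D5:**
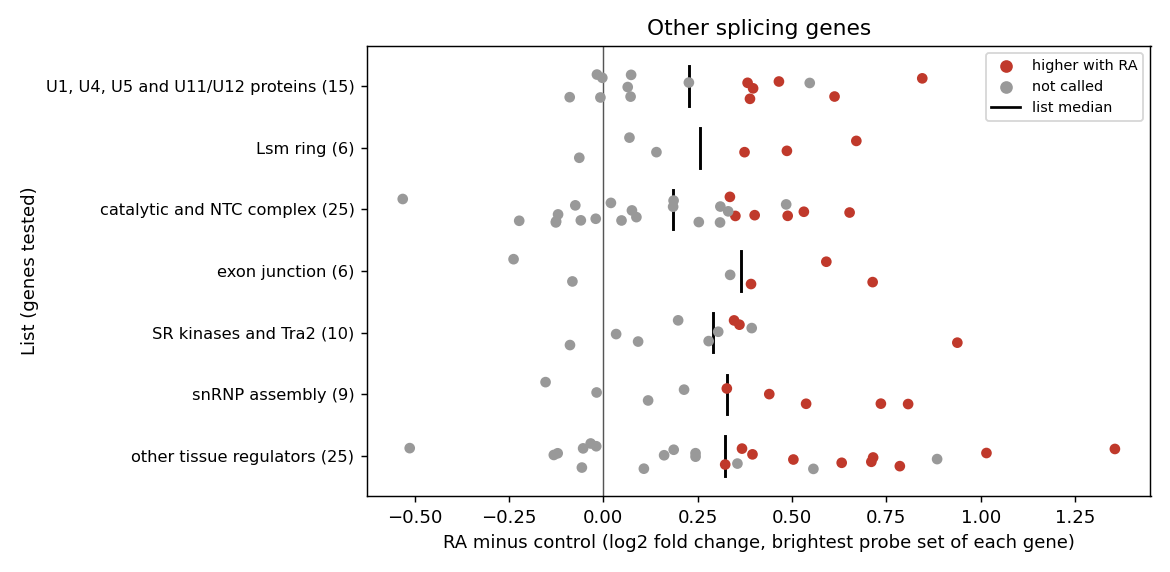
Difference between RA and control bodies (horizontal axis, log2 fold change of the brightest probe set) for 96 splicing genes outside the named families, by list (vertical axis, with the number tested); red rose, grey did not pass, black bars are list medians. Of the 96 genes 36 are red, and the farthest to the right is Esrp1 at 1.36.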

How the data were processed

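Total RNA from 6 samples was labelled as biotinylated cRNA and hybridized to Affymetrix mouse arrays, per the labels' protocols. The deposited values are linear intensities for 45101 probe sets, produced by GCOS with default settings, per the labels; its version is not given in the sources used here. Detection calls were not used. Groups came from the sample titles. The 64 control probe sets were left out. Gene symbols were read from the platform annotation given with the array (34945 probe sets with 1 symbol, 932 with several, 9160 with none), and chromosomes and promoters from RefSeq GRCm38.p6. No genome build is named for the array.

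Intensities plus 16 were log2-transformed and quantile-normalized, and 27022 probe sets above the 40th percentile were fitted with limma 3.58.1 in R 4.3.3 (lmFit, eBayes with trend, two-sided, no covariates). The pseudocount understates the fold change of dim probe sets, and the number of arrays limits precision. P-values were adjusted over all fitted probe sets by Benjamini-Hochberg with a threshold of 0.05. Single values over arrays were tested by exact permutation. The procedure was run on simulated data with known changes that were larger than most member changes here. That run therefore does not show how reliably changes of the sizes reported here are found.

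The members, the gene lists and the tests were chosen with earlier results of these data known. Values on every array were given for up to 6 largest rises and 6 largest falls in each role group among changed genes without overlap, for every Rbfox, Mbnl, Celf and Ptbp gene, U2af1, U2af2 and Esrp2, and for genes with opposite probe sets; up to 3 rises and 3 falls were named from each other list. Same-numbered arrays did not deviate together (correlations -0.08, -0.01 and -0.01), so the numbers were not treated as pairs. Alternatives covered scaling, pseudocount, filter, unit, variance trend, a replicate block, left-out arrays and, added after seeing the data, probe sets with shared-target suffixes left out.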

Additional observations from a re-analysis of the deposited data

How the results depend on the processing

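The counts of changed probe sets are given as rises over falls. Without scaling, all members had 2 falls, core spliceosome 9 rises and 0 falls, hnRNPs 0 falls, tissue regulators 5 rises and 2 falls, and Mbnl 2 falls; Hnrnpa1 turned to 0.041 and U2af2 to 0.28. Trimmed-mean scaling gave 2 core and 1 hnRNP fall and 1 fall among other splicing genes, and Celf5 turned to -0.00081. Core falls were 2 with a pseudocount of 64 and 3 with a 60th percentile filter, which also gave 1 fall among other splicing genes. No filter gave 6 falls of members, 0 in core and 2 in hnRNPs. Without a variance trend, members had 27 rises and 6 falls, core 6 and 0, hnRNPs 4 and 1, and other splicing genes 15 rises. Fits on genes test fewer features: by brightest probe set members had 25 rises and 5 falls, core 0 falls, hnRNPs 6 and 2, SR proteins 6 rises, tissue regulators 3 falls, Mbnl 2 falls and other splicing genes 1 fall. By the mean of probe sets members had 20 and 1, core 7 and 0, hnRNPs 5 and 1, SR proteins 6 rises, tissue regulators 0 falls and Mbnl 0 falls, and Hnrnpa2b1 (-0.13), Hnrnpa1 (0.12), Celf2 (-0.078), Mbnl3 (-0.32) and Rbfox2 (-0.23) turned sign. Without RA array 1 and control array 3, core had 3 and hnRNPs 2 falls, U2af2 had 0.074 and Celf5 -0.029. Without _x_at and _s_at probe sets, which leaves fewer to test, core had 2 falls and SR proteins 11 rises. The replicate block gave 2 core falls, 1 fall among other splicing genes and 20 SR rises. With 1 array left out at a time, core rises were 9 to 17 and falls 0 to 3, hnRNP rises 8 to 12 and falls 2 to 4, and other splicing genes 20 to 32 rises and 0 to 2 falls; Rbfox1 (-0.036 to 0.13), Celf3 (-0.017 to 0.41), U2af2 (-0.31 to 0.20) and Celf5 (-0.00013 to 0.12) changed sign in at least 1 of these fits. Beyond the gene fits and left-out probe sets the cause was not tested. The 26 changed named genes gave 466 alternative values: 386 kept direction and call, 77 lost the call and 3 reversed. The dimmest genes, near the level of 5.74, are limited by signal over background.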
